A study of Homo sapiens with 6 samples.

Results

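The proteasome genes of HCT116, a long-established line from a human colorectal carcinoma, were compared between cells that overexpressed the small nucleolar RNA SNORA28 and control cells. Members were the protein-coding genes whose GENCODE symbol begins with PSMA, PSMB, PSMC, PSMD, PSME, PSMF or PSMG followed by a number. The rule found 50 genes of the 60612 listed in each file, and the rule reads the symbol alone. Of these, 19 encode 20S core subunits, 17 encode 19S cap subunits, 7 encode assembly chaperones, 5 encode other caps or an inhibitor, and 2 (PSMC3IP and PSME3IP1) are named after a subunit without being one.

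The series held 6 poly(A)-selected RNA-seq libraries, 3 from cells infected with a control lentivirus (LV-NC 1 to 3) and 3 from cells infected with a lentivirus carrying SNORA28 (LV-SNORA28 1 to 3). SNORA28 is an H/ACA box small nucleolar RNA, a class that guides pseudouridylation of other RNAs. Both groups carried a lentiviral vector, so the groups differed by its insert, and all 6 libraries came from 1 cell line. Values were FPKM, a level per kilobase of transcript and scaled to the number of mapped fragments. The labels do not say whether replicates came from separate cultures, so p-values measure the spread between these libraries, which may be technical.

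The proteasome is the protease that degrades proteins tagged with ubiquitin. Its 20S core is a barrel of stacked rings, in which outer alpha rings (PSMA genes) gate the entrance and inner beta rings (PSMB genes) hold the proteolytic sites. The 19S cap recognises ubiquitin and feeds the substrate in with a ring of ATPases (PSMC genes) and further non-ATPase subunits (PSMD genes), while alternative caps (PSME genes) open the core without ubiquitin. Dividing cells, including those of epithelial tumours, express the constitutive subunits throughout, and immune cells or cells exposed to interferon exchange the proteolytic beta subunits for alternative ones.

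SNORA28 itself was read at 0.92, 0 and 0.64 FPKM in LV-NC 1 to 3 and at 15.0, 13.7 and 15.2 FPKM in LV-SNORA28 1 to 3. No library of one group reached the other. The gene was higher by 3.41 ± 0.23 (SE) on the log2(FPKM + 1) scale (limma adjusted p = 0.00228). The libraries were poly(A)-selected, and how far these values reflect the mature small nucleolar RNA was not tested. Of 9 colorectal epithelial markers, 7 had a mean of at least 1 FPKM, led by KRT19 at 381 FPKM, while CDX1 was listed at 0 and VIL1 averaged 0.0117 FPKM. Their summed level was 790.1 to 878.7 FPKM in LV-NC and 810.3 to 859.7 FPKM in LV-SNORA28. None of 5 leukocyte and 3 endothelial markers reached 1 FPKM, and of 5 mesenchymal markers COL1A1 (3.58 FPKM) did. Between 24231 and 25771 genes were above 0 per library, and the files give no read totals, so the depth behind each value is unknown. The mitochondrially encoded genes took 42.7% to 47.7% of the total FPKM in LV-NC and 35.9% to 38.3% in LV-SNORA28. FPKM are scaled to the mapped fragments and do not add up to a fixed total. The sum was 334707 to 374676 in LV-NC and 306048 to 320362 in LV-SNORA28. A smaller mitochondrial share can leave more room for other genes. The part of that shift in the values below was not tested beyond a rescaling to the nuclear sum.

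The 20S core subunits PSMB6, which is proteolytic, and PSMA4, of the alpha ring, passed the test, and both were higher with SNORA28. Most other proteasome genes had slightly higher values in LV-SNORA28 without passing the test, and the size was small. A mean of at least 1 FPKM was required for the test, which 45 of the 50 genes had. Of these 45, 38 had a positive and 7 a negative log2 fold change. Of all 12076 genes tested, 8059 were positive and 4017 negative. The median of the 45 was 0.17 with a range of -0.18 to 1.26, beside a median of 0.09 over all genes tested. The summed FPKM of all 50 genes was 1410, 1538 and 1582 in LV-NC and 1659, 1701 and 1713 in LV-SNORA28. All values of LV-SNORA28 lay above those of LV-NC, and the ratio of their means was 1.12, or 1.10 after scaling every library to the same nuclear sum. After quantile normalization 33 of the 45 log2 fold changes were positive and their median was 0.08, where that of all genes was 0.00. In bulk libraries such as these, a change in the RNA per cell and a change in the mix of cells cannot be told apart.

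Called means an adjusted p below 0.05 in limma across all tested genes. By that call 1076 genes passed in all, 822 higher and 254 lower, or 454 higher and 374 lower after quantile normalization. Of the 45 proteasome genes tested, 2 (4.44%) were higher and 0 lower, where 8.91% of all tested genes were called in either direction. The call was thus no more frequent among the proteasome genes than in the background. At an unadjusted p below 0.05, 18 genes were higher (40.0%), where 22.0% of all genes were. At the same cutoff 1, PSME2, was lower, where 734 of all 12076 genes were. The 3 values of LV-SNORA28 all lay above the 3 of LV-NC for 19 genes (42.2%, background 27.0%) and all below for 2 genes, PSME1 and PSME2 (4.44%, background 8.16%). At the threshold of the study, a fold change above 1.5 at an unadjusted p below 0.05, 1 gene of 45 (PSME3, 2.22%) passed, where 3.79% of all genes did. These cutoffs were applied here to the limma fit, so the counts are not the study's own calls. Of the 43 genes not called, 38 had a 95% interval of the fold change that lay within 1.5-fold in both directions. With the called genes included, 39 of 45 had such an interval, beside 9056 of all 12076 genes tested.

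**Figure D1:**
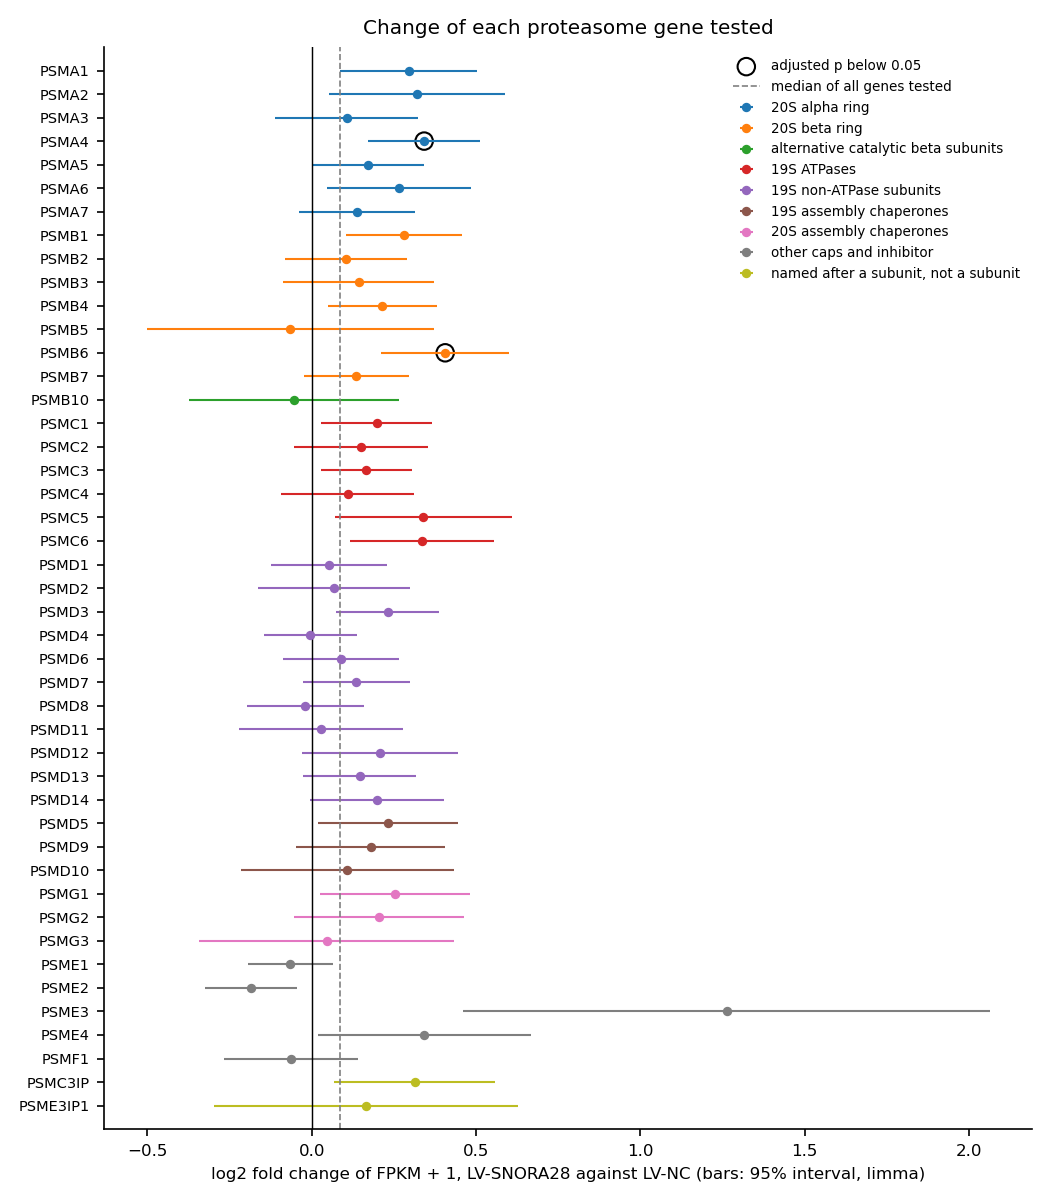
The plot shows the log2 fold change of FPKM + 1 (x axis, LV-SNORA28 against LV-NC) of the 45 proteasome genes tested (y axis), with 95% intervals from limma and colours for roles. Circles mark the called genes PSMB6 and PSMA4, the dashed line is the median of all genes tested (0.09), and PSME3 stands apart at 1.26 with a wide interval.

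Promoters are shown for the called PSMA4 and for the caps PSME3, PSME1 and PSME2, which had log2 fold changes of both signs. Of the 50 genes, 44 matched a RefSeq promoter on GRCh38.p14, and PSMB6 was not among them. Each line gives the 250 bases before the annotated start on the strand of the gene, from chr15:78540155-78540404 (plus strand) for PSMA4, chr17:42833147-42833396 (plus) for PSME3, chr14:24135944-24136193 (plus) for PSME1 and chr14:24146611-24146860 (minus) for PSME2. RefSeq can place a start inside the GENCODE span of a gene, as it did for PSME1, PSME2 and PSME3. Capitals mark a match, on either strand, to TGACNNNGC (the core of the antioxidant response element, which NFE2L1 and NFE2L2 bind) or to CCAAT (the NF-Y box).
PSMA4: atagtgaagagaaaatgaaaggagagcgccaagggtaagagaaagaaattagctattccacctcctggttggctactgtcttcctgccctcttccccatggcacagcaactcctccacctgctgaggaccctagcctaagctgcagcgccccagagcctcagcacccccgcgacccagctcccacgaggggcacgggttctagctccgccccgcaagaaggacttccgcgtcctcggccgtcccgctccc
PSME3: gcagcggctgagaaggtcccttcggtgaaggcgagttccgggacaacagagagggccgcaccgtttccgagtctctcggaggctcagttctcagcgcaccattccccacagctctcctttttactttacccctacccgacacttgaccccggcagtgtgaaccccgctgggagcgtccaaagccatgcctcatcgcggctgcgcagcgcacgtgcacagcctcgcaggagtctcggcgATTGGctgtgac
PSME1: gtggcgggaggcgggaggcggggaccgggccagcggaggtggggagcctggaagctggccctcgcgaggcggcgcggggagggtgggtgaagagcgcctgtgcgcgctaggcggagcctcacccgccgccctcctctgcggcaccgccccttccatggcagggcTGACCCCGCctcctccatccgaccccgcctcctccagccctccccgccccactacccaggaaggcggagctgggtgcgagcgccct
PSME2: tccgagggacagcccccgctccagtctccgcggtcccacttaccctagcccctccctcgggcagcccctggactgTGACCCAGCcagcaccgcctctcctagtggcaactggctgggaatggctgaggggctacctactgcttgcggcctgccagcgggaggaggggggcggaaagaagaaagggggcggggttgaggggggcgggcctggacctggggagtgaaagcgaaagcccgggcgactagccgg

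TGACNNNGC lay in the promoter window, here 250 bases before to 50 after the start, of 13 of 44 proteasome genes (29.5%), where 14.3% of the windows of protein-coding genes and 13.6% of all windows held it. It lay 86 to 78 bases before the start of PSME1 and 175 to 167 bases before that of PSME2, and was not in the windows of PSMA4 and PSME3. CCAAT lay in 21 windows (47.7%, protein-coding genes 36.6%), including that of PSME3 on the minus strand, and GGGCGG, the GC box, in 30 (68.2%, protein-coding genes 59.3%). TTCNNNGAA, the gamma-activated site that STAT factors bind, lay in 5 windows (11.4%, protein-coding genes 6.96%). Both strands were searched, and no other motif overlapped a match to TGACNNNGC in these windows. The 12 tested genes with TGACNNNGC had a median log2 fold change of 0.19 and the 27 without it 0.17. Of those 12, PSME1 and PSME2 had negative log2 fold changes, and the others ran from 0.05 (PSMD1) to 0.34 (PSME4). Medians with and without the motif were 0.17 and 0.19 for CCAAT and 0.19 and 0.11 for GGGCGG. They were 0.28 and 0.17 for TTCNNNGAA, which only 4 tested genes held. Whether the letters go with the size or sign of the change was not tested. A match is a description of the sequence, and no match says only that these letters are not in this window.

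The alpha ring genes, whose products form the gated outer rings of the core, all had positive log2 fold changes, with a median of 0.26 and a range of 0.11 to 0.34 over the 7 tested. PSMA4 (ENSG00000041357, GRCh38 chromosome 15, 78540405 to 78552417) was read at 20.1, 19.02 and 17.7 FPKM in LV-NC against 23.8, 23.4 and 25.7 FPKM in LV-SNORA28. Every LV-SNORA28 library was above every LV-NC library, and the ratio of the means was 1.28. The change was 0.34 ± 0.07 (SE) on the log2(FPKM + 1) scale with a 95% interval of 0.17 to 0.51 (limma adjusted p = 0.0364). Among other settings, the call was lost after quantile normalization (adjusted p = 0.102), after scaling to the nuclear sum (0.0580), with no filter on low values (0.0806), and when any library other than LV-NC 1 was left out (up to 0.121).

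The other alpha subunits did not pass the test. PSMA6 was read at 13.0, 11.8 and 13.2 FPKM in LV-NC against 13.9, 17.2 and 15.3 FPKM in LV-SNORA28, groups that did not overlap (log2 fold change 0.26, limma adjusted p = 0.121). PSMA6 had the lowest level of this ring, 14.1 FPKM on average, and PSMA7 the highest, 102 FPKM, a 7.25-fold range among subunits that stand side by side in 1 ring. PSMA7 was read at 90.1, 96.2 and 105 FPKM in LV-NC against 106, 102 and 112 FPKM in LV-SNORA28, with LV-NC 3 above LV-SNORA28 2 (0.14, adjusted p = 0.281). The difference was smallest for PSMA3, at 21.2 ± 2.61 and 22.8 ± 0.561 FPKM (SD, n = 3 each, log2 fold change 0.11, limma adjusted p = 0.493). PSMA8, the testis counterpart of PSMA7, was listed at 0 in all 6 libraries.

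The beta ring holds 3 proteolytic subunits, of which PSMB6 was called and PSMB7 and PSMB5 were not. Whether their changes differ from one another was not tested. PSMB6 (ENSG00000142507, GRCh38 chromosome 17, 4796144 to 4798502), the subunit with caspase-like activity, was read at 47.5, 51.8 and 57.3 FPKM in LV-NC. In LV-SNORA28 it was read at 67.1, 72.5 and 68.3 FPKM, every library above every control, and the ratio of the means was 1.33. It was higher by 0.41 ± 0.08 (SE) on the log2(FPKM + 1) scale, with a 95% interval of 0.21 to 0.60 (limma adjusted p = 0.0322). Among other settings, the call was lost with no filter on low values (adjusted p = 0.0822) and when any library other than LV-NC 3 was left out (up to 0.111).

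PSMB7, with trypsin-like activity, was read at 79.7, 91.6 and 88.2 FPKM in LV-NC against 94.6, 95.4 and 95.0 FPKM in LV-SNORA28 (log2 fold change 0.14, limma adjusted p = 0.239). Its groups did not overlap, by a margin smaller than the spread within LV-NC. PSMB5, with chymotrypsin-like activity and the main site that proteasome inhibitor drugs bind, was read at 68.3, 86.3 and 95.8 FPKM in LV-NC against 61.7, 89.0 and 89.8 FPKM in LV-SNORA28. Its groups overlapped, and replicate 1 of each group was the lowest. The log2 fold change was -0.06, with an interval of -0.50 to 0.37 that leaves its direction unresolved (adjusted p = 0.852). As a share of PSMB7, PSMB6 stood at 59.6%, 56.5% and 65.0% in LV-NC against 71.0%, 76.0% and 71.9% in LV-SNORA28.

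The 4 further beta ring genes encode subunits without proteolytic activity. PSMB3 had the highest level of all 50 genes, 111 FPKM on average, and was read at 105, 110 and 99.7 FPKM in LV-NC against 129, 102 and 119 FPKM in LV-SNORA28, with overlapping groups (0.14, adjusted p = 0.381). PSMB1 was read at 83.2 ± 5.72 FPKM in LV-NC against 101.2 ± 5.36 FPKM in LV-SNORA28 (SD, n = 3 each, limma adjusted p = 0.0641). PSMB2 had the lowest level of the ring, 46.6 FPKM, so its members spanned a 2.37-fold range, the narrowest of the 4 groups of core and 19S subunits.

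**Figure D2:**
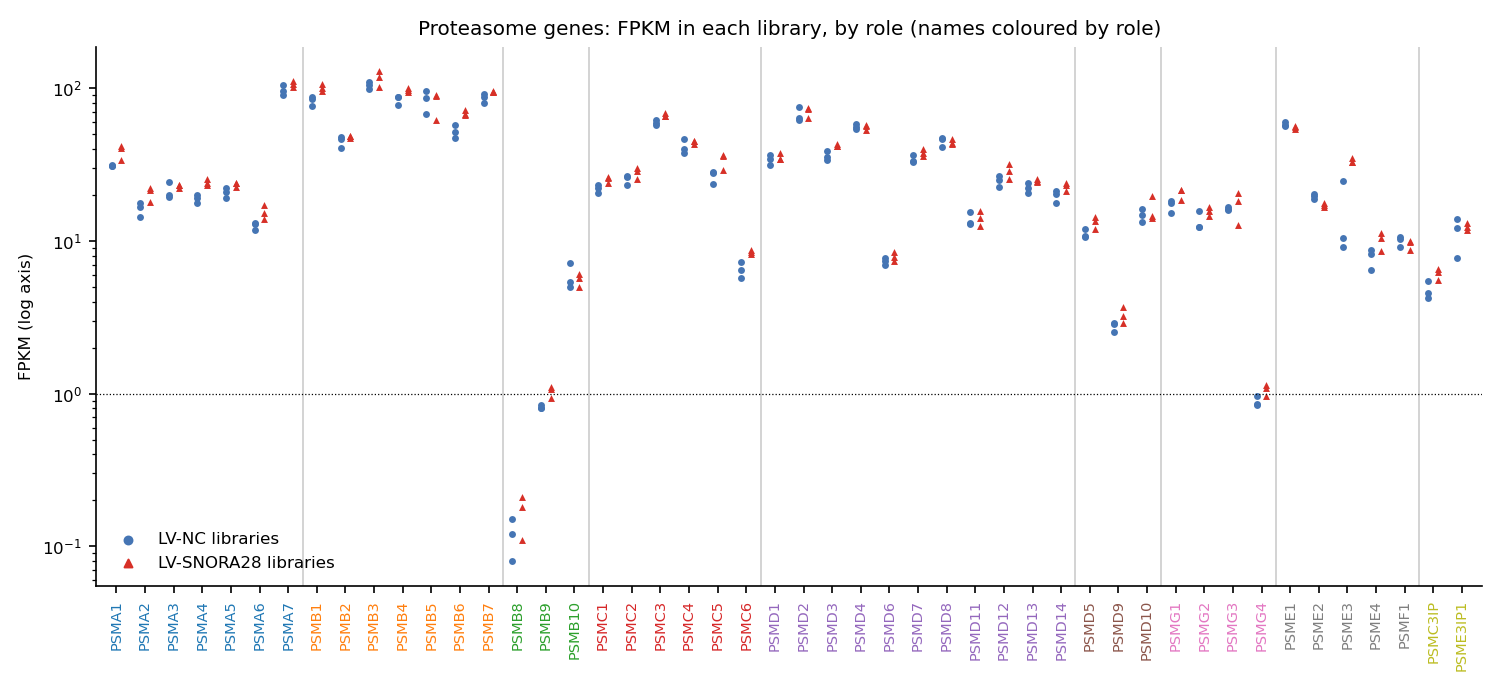
The plot shows FPKM (y axis, log scale) of 48 proteasome genes (x axis, ordered by role) in every library, with LV-NC as circles and LV-SNORA28 as triangles. PSMA8 and PSMB11, at 0 throughout, are left out, and the dotted line is the filter of 1 FPKM. Beta ring genes sit between 46.6 and 111 FPKM on average, while the alternative catalytic subunits lie far below them and the replicates of most genes lie close together.

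The alternative catalytic subunits, which interferon-exposed and immune cells use in place of PSMB5, PSMB6 and PSMB7, were low in both groups. PSMB8, the alternative to PSMB5, was read at 0.12, 0.08 and 0.15 FPKM in LV-NC against 0.18, 0.11 and 0.21 FPKM in LV-SNORA28, which is at most 0.292% of PSMB5 in any library. PSMB9, the alternative to PSMB6, was read at 0.84, 0.80 and 0.81 FPKM in LV-NC against 1.07, 1.11 and 0.94 FPKM in LV-SNORA28. Its groups did not overlap, its mean lay under the filter of 1 FPKM, and in the fit without that filter it did not pass (log2 fold change 0.17, limma adjusted p = 0.484). As a share of PSMB6 it stayed between 1.38% and 1.77%, with overlapping groups.

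PSMB10, the alternative to PSMB7, was read at 5.03, 5.41 and 7.21 FPKM in LV-NC against 5.74, 6.05 and 4.96 FPKM in LV-SNORA28. These groups overlapped (log2 fold change -0.05, limma adjusted p = 0.828), and the sign changed with the library left out (-0.14 to 0.08). PSMB11, the thymus form, was listed at 0 in all 6 libraries. PSMB8 and PSMB9 lie on opposite strands and overlap each other, and PSMB9 also overlaps TAP1. The libraries were made with strand-marking dUTP, but the sources used here do not state whether the counting used the strand.

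The 6 ATPases, which form the ring that unfolds substrates, all had positive log2 fold changes with a median of 0.18, and 0 passed the test. PSMC6 had the lowest level (7.47 FPKM) and was read at 5.71, 7.32 and 6.49 FPKM in LV-NC against 8.17, 8.42 and 8.70 FPKM in LV-SNORA28. Its groups did not overlap, and the log2 fold change was 0.33 ± 0.09 (SE, limma adjusted p = 0.0709). PSMC5 was read at 23.6, 28.1 and 27.9 FPKM in LV-NC against 36.1, 36.4 and 29.2 FPKM in LV-SNORA28 (0.34, adjusted p = 0.110). The ATPase with the highest level was PSMC3, at 63.3 FPKM, with 59.6 ± 2.51 FPKM in LV-NC and 67.0 ± 1.93 FPKM in LV-SNORA28 (SD, n = 3 each, limma adjusted p = 0.122). PSMC4 had the smallest difference of the ring (0.11, adjusted p = 0.450).

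The 11 non-ATPase subunits, which include ubiquitin receptors, scaffolds and a deubiquitinase, had a lower median, 0.09, the same as all genes at 2 decimals, with a range of -0.02 to 0.23. PSMD3, a subunit of the lid, was read at 33.8, 35.3 and 38.6 FPKM in LV-NC against 43.2, 42.0 and 41.7 FPKM in LV-SNORA28. Its groups did not overlap (log2 fold change 0.23, limma adjusted p = 0.0767). At the other end of the range, the lid subunit PSMD8 was read at 41.3, 46.7 and 47.4 FPKM in LV-NC against 43.1, 46.9 and 43.5 FPKM in LV-SNORA28 (-0.02, adjusted p = 0.892). PSMD2, a scaffold and the non-ATPase subunit with the highest level (69.0 FPKM), had overlapping groups and a log2 fold change of 0.07 (adjusted p = 0.690). PSMD6, the lowest of the group at 7.62 FPKM, was also read with overlapping groups (0.09, adjusted p = 0.475).

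Assembly chaperones bind intermediates of the proteasome and leave the finished particle. PSMG1 and PSMG2, which work as a dimer on the alpha ring, were read at 17.1 and 13.5 FPKM on average in LV-NC against 20.6 and 15.7 FPKM in LV-SNORA28 (log2 fold changes 0.25 and 0.21, limma adjusted p = 0.142 and 0.272). The 3 values of PSMG1 in LV-SNORA28 lay above those in LV-NC, while the groups of PSMG2 overlapped. PSMG3, of the second dimer, was read at 16.1, 16.1 and 16.8 FPKM in LV-NC against 18.3, 20.5 and 12.7 FPKM in LV-SNORA28, so 1 library, LV-SNORA28 3, lay below all controls (0.05, adjusted p = 0.885, and 0.24 without it). Its partner PSMG4 lay under the filter, at 0.84 to 0.96 FPKM in LV-NC and 0.96 to 1.14 FPKM in LV-SNORA28 (adjusted p = 0.637 in the fit without the filter).

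The 19S chaperones PSMD5, PSMD9 and PSMD10, which help the ATPase ring to form, had log2 fold changes of 0.23, 0.18 and 0.11, and none passed (limma adjusted p of 0.149 to 0.644). PSMD9 had the lowest level of the 45 genes tested, 3.02 FPKM on average, which sets a 36.7-fold range from PSMB3. PSMD10, also known as the oncoprotein gankyrin, was read at 14.9, 13.3 and 16.2 FPKM in LV-NC against 19.6, 14.7 and 14.2 FPKM in LV-SNORA28. The groups overlapped, with LV-SNORA28 1 alone above every control.

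**Figure D3:**
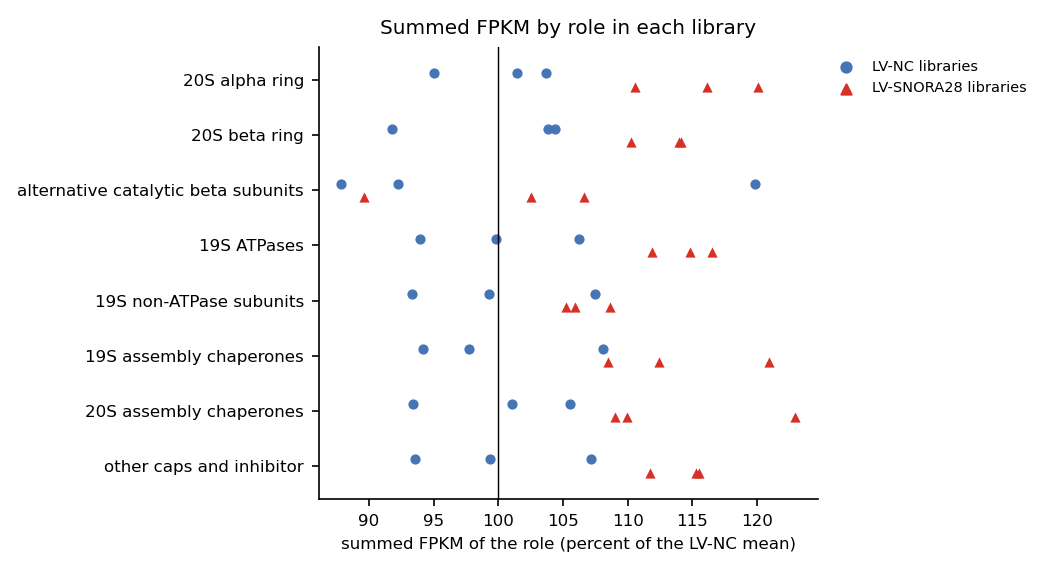
The plot shows the summed FPKM of each role (y axis) in every library as a percentage of the LV-NC mean (x axis). The LV-SNORA28 libraries lie above every LV-NC library for the alpha ring, beta ring, ATPases, both chaperone groups and other caps. They overlap them for the non-ATPase and the alternative catalytic subunits. The sum of the other caps includes PSME3, with a mean of 14.8 FPKM in LV-NC and 33.6 FPKM in LV-SNORA28. Of the 5 genes of that role, 3 had a negative log2 fold change.

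Summed by role, the difference between groups was of a similar size for most of the complex. The alpha ring sum was 207.2, 221.2 and 226.1 FPKM in LV-NC and 241.2, 253.2 and 261.9 FPKM in LV-SNORA28, a ratio of means of 1.16. The beta ring sum was 495.0, 562.9 and 559.8 FPKM in LV-NC and 594.6, 615.1 and 614.4 FPKM in LV-SNORA28, a ratio of 1.13. In both rings LV-NC 1 was the lowest library. The ATPase sum had a ratio of 1.14 with groups that did not overlap, and the non-ATPase sum one of 1.07 with LV-NC 3 (388.2 FPKM) above LV-SNORA28 1 (380.1 FPKM) and LV-SNORA28 2 (382.7 FPKM). Scaling to the nuclear sum kept the ordering of each role shown except the 19S chaperones, whose groups then overlapped (ratio 1.12). The sum of PSMC3IP and PSME3IP1 overlapped after that scaling too. Quantile normalization lowered the median log2 fold change from 0.26 to 0.17 for the alpha ring, from 0.14 to 0.08 for the beta ring, from 0.18 to 0.10 for the ATPases and from 0.09 to -0.00369 for the non-ATPase subunits.

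Within the control group the libraries were not level. The median deviation of the 45 genes from their LV-NC mean was -0.11 in LV-NC 1, 0.01 in LV-NC 2 and 0.07 in LV-NC 3 on the log2 scale, while the median over all genes stayed between -0.03 and 0.03. In LV-NC 1, 6 of 45 genes were above their control mean, and in LV-NC 3, 40 were. In LV-SNORA28 1 to 3 the median deviations were 0.12, 0.18 and 0.18, with 39, 38 and 37 genes above the control mean. The median over all genes tested was 0.08, 0.08 and 0.11 in these LV-SNORA28 libraries. The members thus varied together across control libraries, by a spread of the same order as the difference between groups. Without LV-NC 1 the median log2 fold change of the 45 genes was 0.13.

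The alternative caps and the inhibitor PSMF1 showed both the highest and the lowest log2 fold change of the 45 genes tested. PSME3 (ENSG00000131467, GRCh38 chromosome 17, 42824385 to 42843760) encodes the nuclear cap subunit PA28gamma. It was read at 9.13, 24.8 and 10.5 FPKM in LV-NC against 32.7, 32.9 and 35.1 FPKM in LV-SNORA28. Between the groups there was no overlap, the LV-SNORA28 libraries lay close together, and LV-NC 2 stood between the groups. The means were 14.8 ± 8.67 and 33.6 ± 1.34 FPKM (SD, n = 3 each), a ratio of 2.27. On the log2(FPKM + 1) scale the difference was 1.26 ± 0.33 (SE) with an interval that began at 0.46, and limma gave a p of 0.00777, or 0.0652 after adjustment.

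PSME3 thus met the threshold of the study and not the adjusted one, and of all settings it was called only without LV-NC 2. The limma adjusted p also moved with the filter, to 0.0516 at a mean of at least 5 FPKM and 0.170 with no filter. Without LV-NC 2 the log2 fold change was 1.68 (limma adjusted p = 0.00674), and without each other library it was at least 1.01 with an adjusted p of up to 0.172. PSME3 overlaps BECN1 on the opposite strand, and BECN1 was read at 9.99 ± 0.517 FPKM in LV-NC and 10.5 ± 0.259 FPKM in LV-SNORA28 (SD, n = 3 each, limma adjusted p = 0.526), without the spread of PSME3 among the controls. PSME3IP1, whose product binds PA28gamma, was read at 13.9, 7.73 and 12.2 FPKM in LV-NC against 13.2, 11.9 and 12.3 FPKM in LV-SNORA28. There LV-NC 2 was the lowest library, and the groups overlapped (0.17, adjusted p = 0.620).

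PSME1 and PSME2 encode the alpha and beta subunits of the interferon-inducible PA28 cap. Both had lower values in every LV-SNORA28 library than in any LV-NC library. PSME1 was read at 56.6, 57.4 and 60.2 FPKM in LV-NC against 56.4, 54.0 and 56.0 FPKM in LV-SNORA28 (log2 fold change -0.06, limma adjusted p = 0.484). PSME2 was read at 19.6, 18.96 and 20.3 FPKM in LV-NC against 17.1, 17.7 and 16.6 FPKM in LV-SNORA28 (-0.18 ± 0.06 SE, limma adjusted p = 0.1004). After quantile normalization, which moved the median of all genes from 0.09 to 0.00, PSME2 was called lower (-0.27, adjusted p = 0.0408).

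Seen as a ratio of levels, PSME3 stood at 16.1%, 43.2% and 17.4% of PSME1 in LV-NC against 58.0%, 60.9% and 62.7% in LV-SNORA28. PSME2 stood at 34.6%, 33.1% and 33.8% of PSME1 in LV-NC and at 30.3%, 32.8% and 29.7% in LV-SNORA28, lower in every LV-SNORA28 library. PSME4, the single-chain cap linked to histone turnover, was read at 8.70, 6.44 and 8.21 FPKM in LV-NC against 11.3, 8.58 and 10.5 FPKM in LV-SNORA28, with LV-NC 1 just above LV-SNORA28 2 (0.34, adjusted p = 0.160). The inhibitor PSMF1 had overlapping groups (-0.06, adjusted p = 0.677). PSMC3IP, a recombination factor named after PSMC3, was read at 4.26, 4.54 and 5.46 FPKM in LV-NC against 5.57, 6.56 and 6.27 FPKM in LV-SNORA28 (0.31, adjusted p = 0.107).

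**Figure D4:**
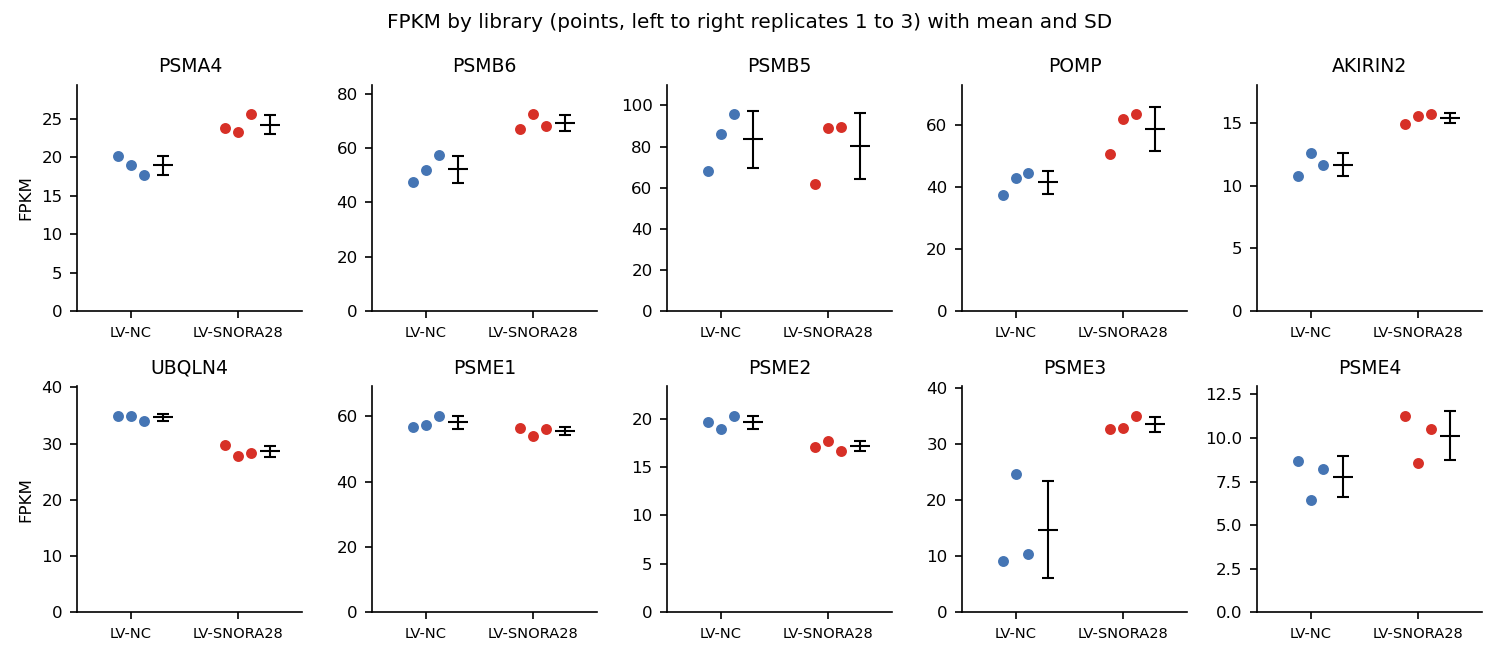
The panels show FPKM (y axis from 0) in each library for 10 genes, with the mean and SD (n = 3) beside the points of each group. PSMA4, PSMB6, POMP and AKIRIN2 are higher and UBQLN4 is lower in all LV-SNORA28 libraries, the groups of PSMB5 overlap, and in the PSME3 panel LV-NC 2 lies at 24.8 FPKM between the other controls and the LV-SNORA28 libraries.

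A list of 29 further genes of the pathway, all of which were tested, held cofactors and regulators with other symbols. Of these, 2 rose and 1 fell (10.3% called, where 8.91% of all genes were), with 21 positive and 8 negative log2 fold changes and a median of 0.08. POMP, the maturation factor of the 20S core, was read at 37.3, 42.9 and 44.5 FPKM in LV-NC against 50.7, 62.0 and 63.6 FPKM in LV-SNORA28. It rose by 0.49 ± 0.11 (SE) on the log2(FPKM + 1) scale (limma adjusted p = 0.0441). AKIRIN2, which carries assembled proteasomes into the nucleus, was read at 10.8, 12.6 and 11.7 FPKM in LV-NC against 15.0, 15.6 and 15.8 FPKM in LV-SNORA28 (0.38 ± 0.07 SE, adjusted p = 0.0295).

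UBQLN4, a shuttle receptor that brings ubiquitin-tagged proteins to the 19S cap, was read at 35.0, 35.0 and 34.0 FPKM in LV-NC against 29.7, 27.9 and 28.4 FPKM in LV-SNORA28. Every LV-SNORA28 library was below every control, and UBQLN4 fell by 0.27 ± 0.05 (SE) on the log2(FPKM + 1) scale (limma adjusted p = 0.0356). With a library left out, the call of POMP held without LV-SNORA28 1 and that of AKIRIN2 without LV-NC 2, while UBQLN4 lost its call each time. The adjusted p of POMP, AKIRIN2 and UBQLN4 then reached 0.136, 0.105 and 0.125. All 3 calls were also lost with no filter on low values (0.0619 to 0.113), those of POMP and UBQLN4 without the trend (0.0532 each) and that of AKIRIN2 after quantile normalization (0.0701).

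The 19S subunits with other symbols did not pass the test. ADRM1, a ubiquitin receptor, was read at 63.4, 66.2 and 70.9 FPKM in LV-NC against 61.7, 64.7 and 59.5 FPKM in LV-SNORA28 (-0.11, adjusted p = 0.342), and SEM1 at 6.17 and 6.80 FPKM on average (0.12, adjusted p = 0.314). NFE2L1, the transcription factor that raises proteasome genes when degradation falls short, was read at 49.7, 30.7 and 58.7 FPKM in LV-NC against 43.4, 41.9 and 55.0 FPKM in LV-SNORA28. The groups overlapped, and the log2 fold change was 0.05 (limma adjusted p = 0.912).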

How the data were processed

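RNA was measured by poly(A)-selected, paired-end RNA-seq in 6 libraries of HCT116 cells, 3 with the control lentivirus and 3 with the SNORA28 lentivirus, grouped by their titles. The submitters' processing notes name cutadapt 1.9, HISAT2 2.2.1, StringTie 2.1.6 and the build hg38, and DESeq2 and edgeR without a version. The authors deposited FPKM per gene with 2 decimals, 1 file per library. The annotation release and read totals are not given in the sources used here. Gene IDs were matched to GENCODE v44, in which 60401 of 60612 had a symbol. The rule for members reads symbols alone, but the family, like the gene lists, was chosen with earlier results of these data known.

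The 12076 genes that averaged at least 1 FPKM were fitted as log2(FPKM + 1) with limma 3.58.1 (R 4.3.3, lmFit and eBayes with trend), two-sided and without covariates, and p-values were adjusted by Benjamini-Hochberg over all genes tested. The fit was tested on simulated data. Members under the filter were read from a fit of the 32761 genes above 0 in any library. Fold changes on this scale understate those of low genes. Exact permutation of 3 against 3 libraries cannot go below 0.1 and was not used. Named genes were those called or at the threshold of the study, the highest and lowest of each role by fold change and by level, those under the filter, the proteolytic subunits with their alternatives, and the genes named after a subunit. Of the pathway list they were the called genes, ADRM1, SEM1, POMP and NFE2L1, and 1 further gene was left out of that list and is not reported here. PSMB1, PSMF1 and BECN1 were added after their values were seen. Alternatives were no trend, quantile normalization, scaling to the nuclear FPKM sum, no filter, a mean of at least 5 FPKM, a pseudocount of 0.1, a replicate block, a fold change above 2 and each library left out. RefSeq promoters were read in windows of 250 bases before to 50 after the start.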

Additional observations from a re-analysis of the deposited data

How the results depend on the processing

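With 3 libraries a group and no read totals, few calls near the threshold held. Against 2 proteasome genes called, 1 was called after scaling to the nuclear sum, 0 with no filter, 0 with a replicate block and 0 to 1 with a library left out, and quantile normalization called 1 higher and 1 lower. Over the leave-one-out fits the single call was PSMA4, PSME3, PSMB6 or PSMA1. Against 1076 genes in all (822 higher, 254 lower), 397 (306 and 91) were called with no filter, 510 (378 and 132) with the replicate block, 828 (454 and 374) after quantile normalization, and 279 to 628 (191 to 491 and 88 to 137) with a library left out. With the cutoffs of the study applied to the limma fit, 458 genes became 263 at a mean of at least 5 FPKM, 771 with a pseudocount of 0.1 and 92 at a fold change above 2. Of the pathway list, 1 in place of 3 was called without the trend, 2 after quantile normalization, 1 with the block, 0 with no filter and 0 to 1 with a library left out. The median of the members was 0.0776 in place of 0.17 after quantile normalization, where that of all genes was -0.0003764. With the block, the calls of PSMB6 (adjusted p = 0.0609), PSMA4 (0.0843), AKIRIN2 (0.0548) and UBQLN4 (0.0705) were lost and that of POMP was kept. The cause of these moves was not tested.

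Replicate numbers were not shown to pair the libraries (correlations of deviations of -0.0441, 0.0914 and 0.00983). Among the genes named by rule, the sign turned after quantile normalization for PSMD2 (-0.0165), PSMD6 (-0.00369), PSMG3 (-0.0378) and NFE2L1 (-0.0200). Of the 45 members tested, 33 in place of 38 were then positive. With a library left out, log2 fold changes ran from -0.144 to 0.0790 for PSMB10, -0.200 to 0.111 for PSMB5, -0.0306 to 0.190 for PSMD10, -0.0803 to 0.0165 for PSMD8, -0.0635 to 0.324 for PSME3IP1, -0.0893 to 0.236 for PSMG3 and -0.214 to 0.242 for NFE2L1.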

Other observations

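The family has 44 annotated pseudogenes, which can share reads with their parent genes. Of these, 23 were above 0 in any library, their summed level was 7.09 to 8.89 FPKM per library, and 2 were tested. PSMC1P1 was read at 2.07, 2.09 and 2.11 FPKM in LV-NC against 2.02, 2.89 and 4.43 FPKM in LV-SNORA28 (limma adjusted p = 0.286), with LV-SNORA28 3 the highest and LV-SNORA28 1 below all controls. PSMA6P1 was read at 2.15, 2.57 and 2.28 FPKM in LV-NC against 2.11, 2.23 and 1.68 FPKM in LV-SNORA28 (adjusted p = 0.382). The values of PSMC1 and PSMA6 are uncertain to the extent that the counting split such reads.

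The transcripts of the 45 tested proteasome genes were short, with a median annotated length of 1540 bases beside 3270 bases over 10573 tested protein-coding genes, and their median GC content was 47.9% beside 49.1%. Across these genes the log2 fold change had a Spearman rho of -0.357 with GC content among the 45 genes and of -0.263 among the 10573, as a description over genes that share 6 libraries and are not independent.

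NFE2L2, a stress-response transcription factor that can also raise proteasome genes, was read at 6.49, 22.5 and 24.1 FPKM in LV-NC against 21.9, 24.8 and 21.1 FPKM in LV-SNORA28 (limma adjusted p = 0.493). The low control library was LV-NC 1, which was also the lowest for the summed alpha ring, beta ring and ATPase genes, and the part of NFE2L2 in that was not tested. The gene was chosen after its values were seen.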
